A study of Mus musculus with 6 samples.

Results

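Complement and coagulation factors are plasma proteins that the liver secretes, and their transcripts are described here in livers of mice with and without the stress-response gene Sesn3. The 41 genes were chosen by symbol, and all 41 were found among the 24421 gene symbols of the count table. They are the 21 components, regulators and receptor of complement and the 20 clotting, anticoagulant and fibrinolytic proteins listed by role in the text that follows. RNA was sequenced from livers of male C57BL/6 mice aged 4 months, 3 labelled Sesn3 KO and 3 labelled wild type (WT). All 6 had been fed for 4 weeks a diet with 20% of its energy from protein, 40% from fat and 40% from carbohydrate, to which cholesterol (1.25%) and, as a bile salt, sodium cholate (0.5%) had been added. How the knockout was made, and whether the livers came from littermates, is not given in the sources used here. The labels mark the livers as individual samples and say no more of their origin, and the p-values rest on the spread among them, which may be technical.

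Complement is a cascade of plasma proteases that marks microbes and damaged cells and ends in a pore, the membrane attack complex. The classical pathway starts from antibody bound by C1, the lectin pathway from mannose-binding lectins on sugars, and the alternative pathway amplifies both through C3 and factor B. Coagulation is a parallel cascade in which the intrinsic and extrinsic arms activate thrombin, which cuts fibrinogen to fibrin, while anticoagulants restrain it and plasmin dissolves the clot. Hepatocytes make most of these proteins, and several are acute-phase proteins whose genes respond to interleukin-6.

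Levels are CPM values, in which each count is divided by its library's total and a TMM factor that corrects for RNA composition, and changes are log2 fold changes of KO minus WT. Libraries held between 18882220 and 24098512 counts. Sesn3 itself had 18, 18 and 16 counts in KO replicates 1 to 3 and 172, 200 and 195 in WT replicates 1 to 3. The hepatocyte transcript Alb was at 68110 to 84307 CPM in KO and 56848 to 100840 CPM in WT. Summed markers of Kupffer cells and macrophages ran from 2574 to 3073 CPM in KO and from 970 to 2520 CPM in WT, with 2 of 11 genes higher by the test (Trem2 and Clec4f). Those of stellate cells and myofibroblasts ran from 536 to 664 CPM in KO and from 268 to 346 CPM in WT, with 2 of 7 higher (Col1a1 and Dcn). At an unadjusted p below 0.05 the lists held 6 of 11 and 5 of 7, against 25.8% of all genes tested. Among all genes tested 3.36% were called higher. Of the 6 fits that dropped a library, Trem2, Clec4f and Col1a1 passed in 2 and Dcn in 1 (adjusted p of up to 0.0963, 0.107, 0.106 and 0.157). The 8 hepatocyte markers summed to between 91810 and 112120 CPM in KO and between 87578 and 140949 CPM in WT, and none of the 8 passed the test (3 had an unadjusted p below 0.05, and DESeq2 called 3 lower). The neutrophil, endothelial, cholangiocyte, platelet and lymphocyte lists held no gene called by edgeR. At an unadjusted p below 0.05 they held 0 of 4, 2 of 7, 1 of 5, 2 of 3 and 1 of 6 tested genes, against 25.8% of all genes. DESeq2 called 1 platelet gene. The part of these cell types in the results was not tested, and in bulk tissue fewer cells of a type and less RNA per cell cannot be told apart.

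Of the 41 genes, 40 had enough counts to be tested, and 10 were lower and none higher in KO by edgeR's quasi-likelihood test at an adjusted p of 0.05. Among all 12945 genes tested, 3.58% were called lower and 3.36% higher, 6.94% in all. An unadjusted p below 0.05 was found for 20 of the 40, against 25.8% of all genes tested, the share beside which each such count should be read. The 10 genes were C8b, C8a, C9 and C8g of the terminal pathway, the lectin Mbl1 and its protease gene Masp2, the classical protease gene C1ra, the inhibitor gene Serping1, and in coagulation Cpb2 and F11. The median log2 fold change of the 40 genes was -0.50, against 0.00 over all genes tested. The estimate was negative for 36 of the 40, and for 30 of them when libraries were scaled by library size only, a scaling that moved the median of all genes to 0.21. KO and WT libraries did not overlap, with KO lower, in 20 of the 40 genes, against 16.6% of all genes. They did not overlap with KO higher in 2, C3 and Cfp, against 16.9%. Complement held 8 of the 10 calls among its 20 tested genes (median -0.66) and clotting held 2 of 20 (median -0.47). That difference in count was not tested.

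The number of calls changed when a single library was left out, as did that over all genes, given in the section on processing. Leaving out a library also leaves fewer samples, and the part of each was not tested. Without KO replicates 1, 2 and 3 in turn 3, 1 and 2 of the genes passed as lower, and 8, 7 and 3 passed without WT replicates 1, 2 and 3. DESeq2 called 16 lower and Cfp higher, adding C1s1, C4b, C4bp, C6, F9 and F10 to the same 10. Mbl1 passed in each of these fits.

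**Figure D1:**
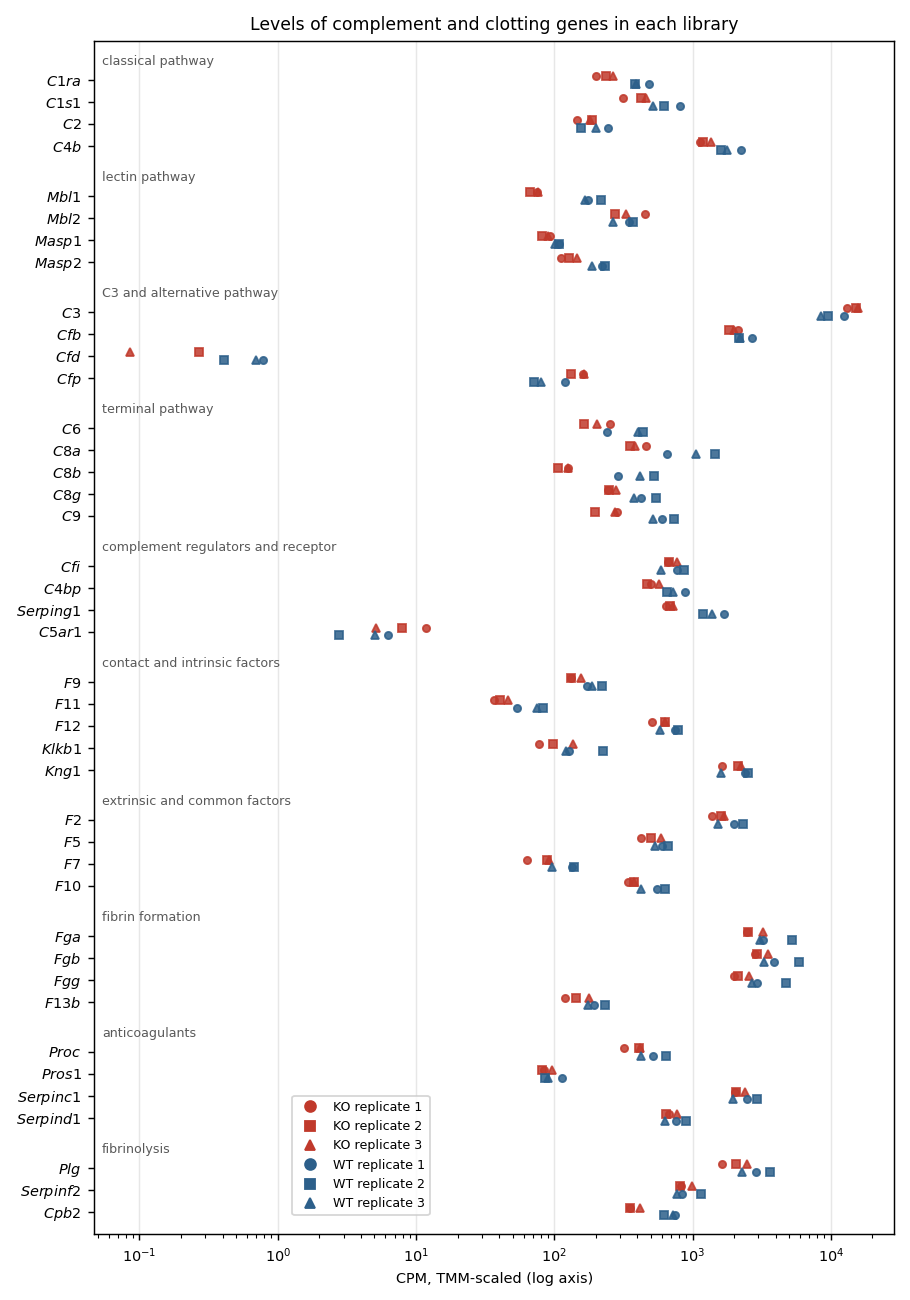
CPM of the 41 genes in each of the 6 libraries on a log axis, grouped by role, with KO in red above WT in blue and the replicate shown by the symbol. The value of 0 for Cfd in KO replicate 1 cannot be drawn. C3 is the highest and Cfd the lowest of the genes, and the red and blue points are apart for C8b, C9, Mbl1 and Serping1.

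Per kilobase of exon, the WT levels of these genes covered a wide range. C3, the protein on which the 3 pathways converge, was highest at 1985 ± 409 CPM per kb (SD, n = 3). The fibrinogen chains Fgg (1653 ± 548), Fga (1272 ± 398) and Fgb (1148 ± 363) followed in CPM per kb, then plasminogen (Plg, 1068 ± 247) and prothrombin (F2, 981 ± 199). Each of these overlapped its neighbour in the order, although every Fgg library was above every F2 library. Among the 40 pairs of neighbours in the whole order only 4 had WT libraries that did not overlap. At the low end were Masp1 (12.4 ± 0.513 CPM per kb), the C5a receptor gene C5ar1 (1.83 ± 0.690), which myeloid cells express, and Cfd (0.682 ± 0.214), the factor D gene known for its expression in fat. Together the 41 genes took 4.48%, 4.55% and 4.76% of all counts in KO replicates 1 to 3 and 4.82%, 4.76% and 4.07% in WT replicates 1 to 3, so their share overlapped between the genotypes. The part of C3 in that share was higher in each KO library, which was not tested. C3 supplied 33.7%, 35.9% and 33.4% of it in KO and 24.6%, 17.2% and 20.6% in WT, and no KO library overlapped a WT library. C3 itself did not pass the test (edgeR adjusted p = 0.226). The other 40 genes summed to 25916 to 31453 CPM in KO and 32621 to 46073 CPM in WT, without overlap.

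The classical pathway genes had a median log2 fold change of -0.66, with 1 of 4 called lower, against 3.58% of all genes tested. C1ra, one of the mouse genes for the protease C1r that autoactivates inside C1, lies at chr6:124512405-124523443 (mm10, plus strand). It was at 202, 237 and 264 CPM in KO replicates 1 to 3 and at 488, 381 and 389 CPM in WT replicates 1 to 3. Each KO library lay below each WT library, and C1ra fell 1.79-fold (log2 fold change -0.84, SE 0.17, edgeR adjusted p = 0.0322). Among the fits that left out 1 library it passed only when that was WT replicate 2 (in the others adjusted p reached 0.132), and it did not pass with library size only (0.0541). Its neighbour C1s1, for the protease C1s that C1r cleaves, was at 314, 421 and 462 CPM in KO and 812, 626 and 515 CPM in WT. The C1s1 groups did not overlap either, but the estimate of -0.71 (SE 0.23) did not pass (edgeR adjusted p = 0.104). C4b, for the C4 protein that C1s cleaves, also showed no overlap, at 1129 to 1360 CPM in KO and 1613 to 2255 CPM in WT (log2 -0.62, SE 0.20, adjusted p = 0.101). C2, the protease partner of C4, overlapped between the genotypes (log2 -0.22, SE 0.19). The annotated locus Gm20547 covers, on the same strand, 59.2% of the exon bases of C2 and 81.6% of those of its neighbour Cfb, so reads there cannot be assigned to 1 locus with certainty. The near-identical copies C1rb and C1s2 had 0 to 4 counts in any library, while C4a, the copy of C4b, had 165 to 454 counts, so reads that match both C4 genes leave the C4b value uncertain.

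In the lectin pathway Mbl1 and Masp2 fell, and their paralogs Mbl2 and Masp1 were not called. Mbl1, for mannose-binding lectin A (chr14:41151458-41159601, plus strand), was at 75.7, 67.1 and 76.5 CPM in KO and 175, 218 and 168 CPM in WT. The groups were far apart, and Mbl1 fell 2.56-fold (log2 -1.36, SE 0.14, edgeR adjusted p = 0.0049), passing without each library in turn with an adjusted p of up to 0.0424. Mbl2, for mannose-binding lectin C (chr19:30232942-30239687, plus strand), was at 452, 276 and 331 CPM in KO and 350, 373 and 264 CPM in WT. The Mbl2 groups overlapped fully, with a log2 difference of 0.10 (SE 0.22, adjusted p = 0.813) that went to -0.11 without KO replicate 1 and to -0.03 without WT replicate 3. Within a library the log2 ratio of Mbl2 to Mbl1 counts was 2.58, 2.04 and 2.11 in KO and 1.00, 0.78 and 0.65 in WT. The ratio was higher in every KO library, by 1.44 on the log2 scale (exact two-sided permutation p = 0.10, the smallest that 3 against 3 allows, adjusted p = 0.20 over 8 ratios).

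Masp2, for the protease that cleaves C4 and C2 (chr4:148602554-148615499, plus strand), was at 113, 127 and 146 CPM in KO and 220, 234 and 186 CPM in WT. All KO libraries were lower, a fall of 1.66-fold (log2 -0.73, SE 0.15, edgeR adjusted p = 0.0337) that did not pass when any of the 6 libraries was dropped (adjusted p of up to 0.143). In the GENCODE annotation 56.3% of the exon bases of Masp2 overlap Tardbp on the opposite strand, and the strand setting of the counting is not given in the sources used here. Tardbp was at 28.3 ± 5.15 CPM in KO and 42.1 ± 4.20 CPM in WT (SD, n = 3 each). Its estimate was -0.57 (SE 0.16, edgeR adjusted p = 0.0703), and its part in the Masp2 value was not tested. Masp1, whose gene also encodes the splice forms MASP-3 and MAp44, was at 81.5 to 93.9 CPM in KO and 101 to 108 CPM in WT, without overlap (log2 -0.26, SE 0.11, edgeR adjusted p = 0.191). The Masp2 to Masp1 ratio was lower in every KO library, by a log2 difference of -0.47 (exact permutation p = 0.10, adjusted p = 0.20).

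The promoter windows of Mbl1 and Mbl2 are shown because these paralogs differed most in change. Each runs from 250 bases before to 50 after the transcription start (RefSeq, GRCm38.p6, the build also called mm10), at chr14:41151206-41151505 and chr19:30232678-30232977, both on the plus strand. Capitals mark the longest run of bases that both windows share, 13 bases starting at position -23 in Mbl1 and -57 in Mbl2 relative to the start.
Mbl1: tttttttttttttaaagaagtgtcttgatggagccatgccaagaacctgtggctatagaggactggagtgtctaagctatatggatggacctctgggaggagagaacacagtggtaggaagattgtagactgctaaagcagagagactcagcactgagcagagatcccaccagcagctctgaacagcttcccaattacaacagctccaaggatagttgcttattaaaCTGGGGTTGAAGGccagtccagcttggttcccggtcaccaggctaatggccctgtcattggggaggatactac
Mbl2: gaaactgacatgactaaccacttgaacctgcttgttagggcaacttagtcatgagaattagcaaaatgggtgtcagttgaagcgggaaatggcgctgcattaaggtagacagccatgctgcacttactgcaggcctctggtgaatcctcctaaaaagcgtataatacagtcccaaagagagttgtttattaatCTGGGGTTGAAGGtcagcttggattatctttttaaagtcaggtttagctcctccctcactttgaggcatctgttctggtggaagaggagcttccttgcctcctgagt

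C3 and properdin ran against the direction of most of the other genes. C3 (chr17:57203970-57228136, minus strand) was at 13193, 15209 and 15739 CPM in KO and 12535, 9572 and 8472 CPM in WT. Each KO library was above each WT library, although KO replicate 1 and WT replicate 1 lay close together. The difference of 0.53 (SE 0.25) did not pass (edgeR adjusted p = 0.226), and DESeq2 gave an adjusted p of 0.0502. Cfp, for properdin, a stabilizer of the alternative convertase that myeloid cells are known to make, was at 161, 132 and 163 CPM in KO and 120, 71.9 and 79.6 CPM in WT. These groups did not overlap, and the log2 difference of 0.75 (SE 0.21) missed the threshold (adjusted p = 0.0729). Cfp passed without WT replicate 1 (log2 1.01, adjusted p = 0.0183), with library size only (0.0495) and with DESeq2 (0.0174). The macrophage marker levels given in the opening moved with it, and their part was not tested. Cfb, the protease factor B, was at 1844 to 2143 CPM in KO and 2180 to 2691 CPM in WT, just without overlap (log2 -0.24, SE 0.19, edgeR adjusted p = 0.461). Cfd was below the filter, with 0, 7 and 2 counts in KO and 15, 7 and 13 in WT. Of the 5 fat cell markers Plin1 and Lep had no counts in any library, and Adipoq and Retn had too few to be tested. Only Cidec was tested, and it was not called (log2 2.21). The sum of the 5 was 53.1 to 70.0 CPM in KO and 2.44 to 33.9 CPM in WT. With 1 tested gene, that sum does not measure fat cells as a set. The part of fat cells in the Cfd values was not tested. The summed level of C3, Cfb, Cfd and Cfp was 15497 to 17913 CPM in KO and 10758 to 15348 CPM in WT.

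The terminal pathway held the largest changes. Of its 5 genes 4 were called lower, against 3.58% of all genes tested, and the fifth, C6, was not called. The median log2 fold change of the 5 was -1.29. Their summed level was 1360, 1066 and 1273 CPM in KO and 2202, 3701 and 2768 CPM in WT. C8 is a trimer of alpha, beta and gamma chains that joins C5b, C6 and C7 at the membrane and lets C9 polymerize into the pore.

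C8b, the beta chain gene (chr4:104766317-104804548, plus strand), was at 125, 106 and 125 CPM in KO and 288, 524 and 417 CPM in WT. It fell 3.45-fold (log2 -1.79, SE 0.23, edgeR adjusted p = 0.00873), and the call was lost in 1 of the 6 fits that dropped a library, that without KO replicate 2 (0.062). C8a, the alpha chain gene 11.1 kb away on the opposite strand (chr4:104815679-104876398), was at 459, 351 and 386 CPM in KO and 652, 1458 and 1051 CPM in WT. The KO values were tight and the WT values spread over more than 2-fold, with WT replicate 1 lowest for both genes. C8a fell 2.64-fold (log2 -1.40, SE 0.30, adjusted p = 0.0365), a call that was lost when any KO library or WT replicate 3 was dropped (adjusted p of up to 0.153). C8g, for the gamma chain, a lipocalin encoded on another chromosome (chr2:25498651-25501719, minus strand), was at 243, 249 and 279 CPM in KO and 424, 548 and 375 CPM in WT. The fall of C8g was smaller, at 1.75-fold (log2 -0.81, SE 0.18, adjusted p = 0.0405), and it did not pass without any 1 of the 6 libraries (adjusted p of up to 0.164). Ratios between the chains were compared within libraries by exact permutation. With 3 libraries a group the exact permutation p cannot go below 0.10, so that permutation test could not call either ratio. The log2 ratio of C8b to C8a was -1.88, -1.73 and -1.63 in KO and -1.18, -1.48 and -1.33 in WT, lower in every KO library (difference -0.41, exact permutation p = 0.10, adjusted p = 0.20). The ratio of C8g to C8a overlapped between the genotypes (difference 0.54, exact permutation p = 0.20, adjusted p = 0.32).

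C9, the pore-forming unit (chr15:6445327-6498751, plus strand), was at 282, 197 and 277 CPM in KO and 598, 732 and 522 CPM in WT. No libraries overlapped, and C9 fell 2.45-fold (log2 -1.29, SE 0.21, edgeR adjusted p = 0.0173), a call that was lost when KO replicate 2 or 3 was dropped (adjusted p of up to 0.0777). C6 was at 251, 163 and 205 CPM in KO and 240, 439 and 403 CPM in WT. WT replicate 1 lay inside the KO range, and the estimate of -0.80 (SE 0.26) did not pass (adjusted p = 0.108), but it did without WT replicate 1 (log2 -1.02, adjusted p = 0.0372). Hc, the gene for C5, from which the pore is built, is not one of the 41 and was taken from a list of other complement genes. It was at 54.4, 689 and 783 CPM in KO and 929, 1238 and 1026 CPM in WT. KO replicate 1 was more than 10-fold below each other library, and Hc did not pass with it (log2 -1.07, SE 0.79, adjusted p = 0.440) or without it (log2 -0.52, adjusted p = 0.189). None of the terminal genes showed such a drop in KO replicate 1, where C6, C8a and C9 were each highest among the KO libraries. C8b was at 125 CPM there, against 106 and 125 CPM in KO replicates 2 and 3. C8g was lowest there, at 243 CPM against 249 and 279 CPM.

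The promoter windows of C8b, C8a and C9, the terminal genes with the largest changes, are shown with that of C3, whose estimate ran the other way. They lie at chr4:104766067-104766366 (plus strand), chr4:104876349-104876648 (minus), chr15:6445096-6445395 (plus) and chr17:57228087-57228386 (minus). Capitals mark matches, on either strand, to motifs of factors known in hepatocytes: the short HNF1 motif GTTAAT, the C/EBP motif TTGCNNAA and the STAT motif TTCNNNGAA.
C8b: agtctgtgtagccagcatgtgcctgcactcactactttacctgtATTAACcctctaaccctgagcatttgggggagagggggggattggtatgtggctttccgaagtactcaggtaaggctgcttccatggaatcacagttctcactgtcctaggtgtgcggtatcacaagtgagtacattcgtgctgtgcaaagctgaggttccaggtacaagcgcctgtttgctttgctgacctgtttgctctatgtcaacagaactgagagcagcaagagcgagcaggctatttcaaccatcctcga
C8a: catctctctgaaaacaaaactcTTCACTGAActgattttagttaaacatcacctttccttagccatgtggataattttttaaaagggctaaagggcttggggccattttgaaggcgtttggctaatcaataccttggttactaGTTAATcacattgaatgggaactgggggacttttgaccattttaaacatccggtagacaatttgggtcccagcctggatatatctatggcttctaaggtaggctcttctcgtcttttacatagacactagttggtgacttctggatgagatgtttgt
C9: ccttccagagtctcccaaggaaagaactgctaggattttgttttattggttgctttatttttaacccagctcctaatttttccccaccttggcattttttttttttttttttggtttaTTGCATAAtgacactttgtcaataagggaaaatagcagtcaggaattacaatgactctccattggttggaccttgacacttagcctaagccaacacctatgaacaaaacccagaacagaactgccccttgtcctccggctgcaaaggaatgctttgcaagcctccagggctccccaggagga
C3: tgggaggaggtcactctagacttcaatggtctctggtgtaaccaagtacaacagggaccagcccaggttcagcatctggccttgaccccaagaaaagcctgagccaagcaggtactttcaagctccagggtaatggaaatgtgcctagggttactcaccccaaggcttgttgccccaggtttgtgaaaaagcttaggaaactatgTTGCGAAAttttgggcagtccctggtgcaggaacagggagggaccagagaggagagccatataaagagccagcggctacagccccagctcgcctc

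RefSeq windows were matched for 32 of the 41 genes, with 34 windows in all. The short HNF1 motif was in 26.5% of these windows, against 7.10% of all 32851 windows of the same length. C8b held it at -206 and C8a at -107. The C/EBP motif was in 32.4% against 10.8%, at -132 in C9 and at -45 in C3. The STAT motif was in 20.6% against 8.30%, at -228 in C8a. Fga and Fgb each held all 3 motifs, and C1ra did as well. The FOXA motif TGTTTAC was in 5.88% against 3.65%, in the neighbouring genes F11 and Klkb1. The full palindromic HNF1 site (0.00913% of all windows), the HNF4 motif CAAAGTCCA (0.475%) and its core CAAAGTC (4.44%) were in none of the 34. The full HNF1 site and CAAAGTCCA are so rare over all windows that 34 windows cannot show a shortage of them. Of the 10 genes that fell, 9 had a window, and 3 held the short HNF1 motif, 4 the C/EBP motif and 3 the STAT motif. Such matches are descriptions of letters in these windows and were not tested as sites.

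Among the regulators, Serping1, for the C1 inhibitor that blocks C1r, C1s, the MASPs, kallikrein and factor XIIa (chr2:84765387-84775444, minus strand), was at 648, 687 and 724 CPM in KO and 1699, 1186 and 1383 CPM in WT. It fell 2.07-fold with no overlap (log2 -1.05, SE 0.19, edgeR adjusted p = 0.0234), and the call was lost when any KO library or WT replicate 3 was dropped (adjusted p of up to 0.111). C4bp, for the C4b-binding protein, was at 467 to 572 CPM in KO and 652 to 879 CPM in WT, apart but not called (log2 -0.55, SE 0.18, adjusted p = 0.103). Cfi, for the factor I protease that inactivates C3b and C4b, overlapped between the genotypes (log2 -0.08, SE 0.19, and 0.14 with library size only and 0.04 without WT replicate 2). C5ar1 was at 11.9, 7.95 and 5.17 CPM in KO and 6.28, 2.79 and 5.07 CPM in WT, overlapping (log2 0.82, SE 0.39, adjusted p = 0.232).

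**Figure D2:**
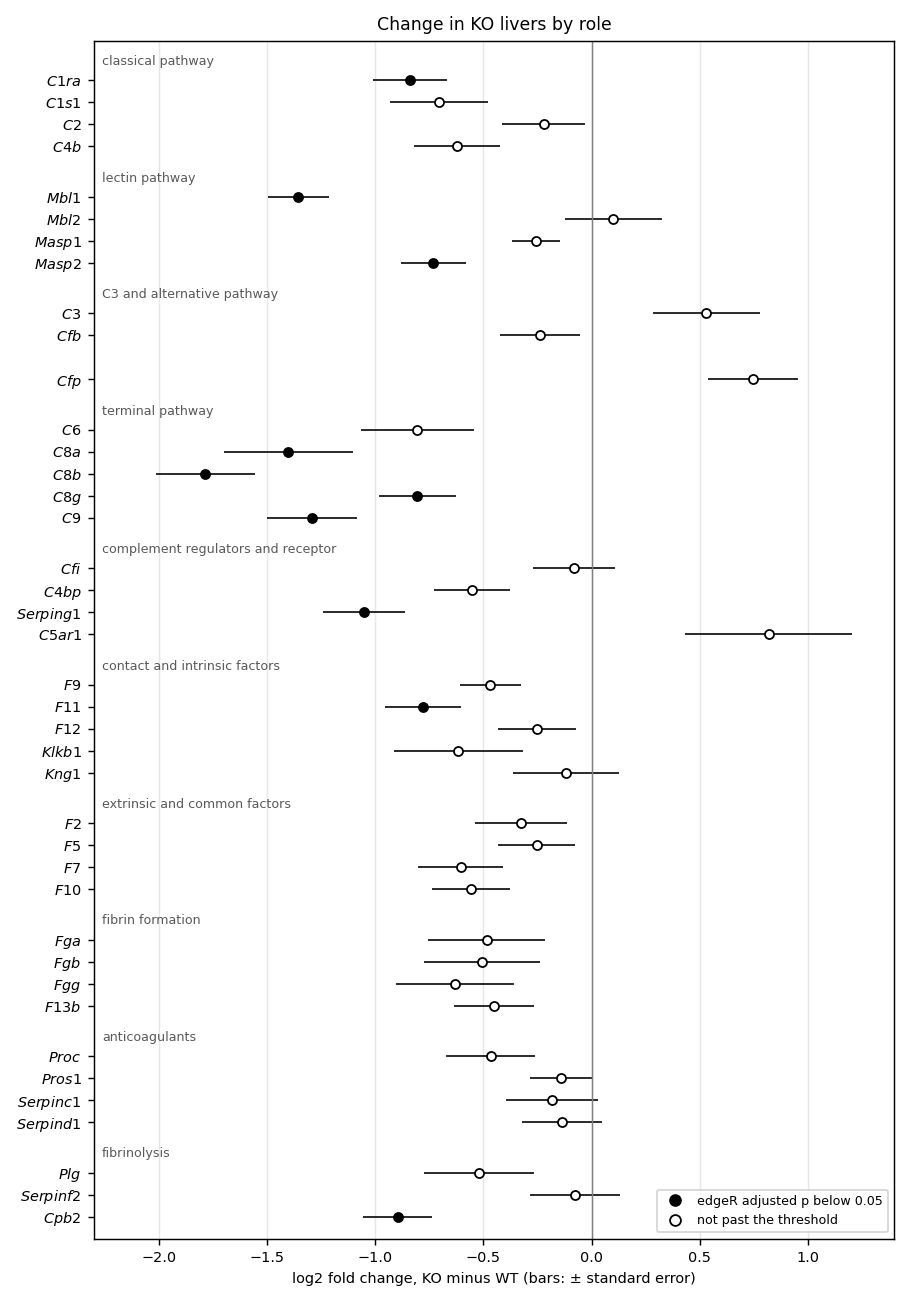
Log2 fold change of KO minus WT with its standard error for the 40 tested genes by role (Cfd was not tested), filled where edgeR's adjusted p was below 0.05. The 4 filled terminal pathway genes lie between -0.81 and -1.79, C3, Cfp, C5ar1 and Mbl2 lie above 0, and the clotting genes lie between -0.90 and -0.08.

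Of the clotting genes 2 of 20 were called lower, against 3.58% of all genes tested. At an unadjusted edgeR p below 0.05 there were 6 of 20, against 25.8% of all genes tested. All 20 estimates were negative (median -0.47). With library size only, those of Kng1, Pros1, Serpinc1, Serpind1 and Serpinf2 turned positive (0.03 to 0.14). So did Kng1 without KO replicate 1 (0.02) and Serpinf2 without WT replicate 2 (0.12). In the contact and intrinsic arm F11, for factor XI (chr8:45241174-45262031, minus strand), was at 36.9, 40.2 and 46.2 CPM in KO and 54.1, 82.5 and 75.1 CPM in WT. The groups did not overlap, and F11 fell 1.72-fold (log2 -0.78, SE 0.18, edgeR adjusted p = 0.0428). It passed in 1 of the 6 fits that dropped a library, that without WT replicate 1 (adjusted p of up to 0.161 in the others), and not with library size only (0.0684). Its neighbour Klkb1, for plasma prekallikrein, overlapped between groups at 77.5, 97.6 and 136 CPM in KO and 129, 226 and 122 CPM in WT (log2 -0.62, SE 0.30, adjusted p = 0.241), and 43.2% of its exon bases overlap the same-strand locus Gm45753. F9, for factor IX, was at 131 to 155 CPM in KO and 174 to 220 CPM in WT without overlap (log2 -0.47, SE 0.14, adjusted p = 0.0883). F12 (log2 -0.25, SE 0.18) and Kng1 (log2 -0.12, SE 0.24) overlapped.

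Factors of the extrinsic and common arms had estimates from -0.61 to -0.25, and none of the 4 passed. F7 and F10, which lie 1.5 kb apart on chromosome 8, were at 63.4, 88.7 and 90.9 CPM and at 343, 375 and 379 CPM in KO. In WT they were at 135, 139 and 95.8 CPM and at 555, 632 and 427 CPM. In both genes the KO libraries lay below the WT libraries, with estimates of -0.61 (SE 0.20, edgeR adjusted p = 0.108) and -0.56 (SE 0.18, adjusted p = 0.104). Their log2 ratio overlapped between the genotypes (difference 0.07, exact permutation p = 0.80, adjusted p = 0.90). Prothrombin (F2, log2 -0.33, SE 0.21) and factor V (F5, log2 -0.25, SE 0.18) overlapped. The 6 vitamin K-dependent proteins F2, F7, F9, F10, Proc and Pros1 had a median of -0.47, and none passed, with 3 of 6 at an unadjusted p below 0.05 (25.8% over all genes) and F9 and F10 called by DESeq2. The KO and WT libraries of 4 of the 6 (F7, F9, F10 and Proc) did not overlap, with KO lower, against 16.6% of all genes tested.

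The 3 fibrinogen genes form a cluster on chromosome 3 (83007724 to 83049863) and were each highest in WT replicate 2. Fga was at 2473, 2501 and 3237 CPM in KO and 3229, 5208 and 3052 CPM in WT. Fgb was at 2812, 2904 and 3508 CPM in KO and 3898, 5931 and 3293 CPM in WT. Fgg was at 2008, 2116 and 2579 CPM in KO and 2929, 4777 and 2674 CPM in WT. KO and WT libraries overlapped for Fga and Fgb and did not for Fgg. The estimates were -0.48 (SE 0.27), -0.51 (SE 0.27) and -0.63 (SE 0.27), and none passed (edgeR adjusted p from 0.195 to 0.302). The log2 ratio of Fga to Fgb was -0.17 ± 0.0512 in KO and -0.19 ± 0.0810 in WT (SD, n = 3 each; exact permutation p = 0.90). That of Fgg to Fgb was -0.46 ± 0.0216 in KO and -0.34 ± 0.0614 in WT, a small shift of -0.12 with no overlap (exact permutation p = 0.10, adjusted p = 0.20). F13b, for the carrier subunit of factor XIII, was at 147 ± 28.8 CPM in KO and 201 ± 30.5 CPM in WT (SD, n = 3 each; log2 -0.45, SE 0.18, adjusted p = 0.174).

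**Figure D3:**
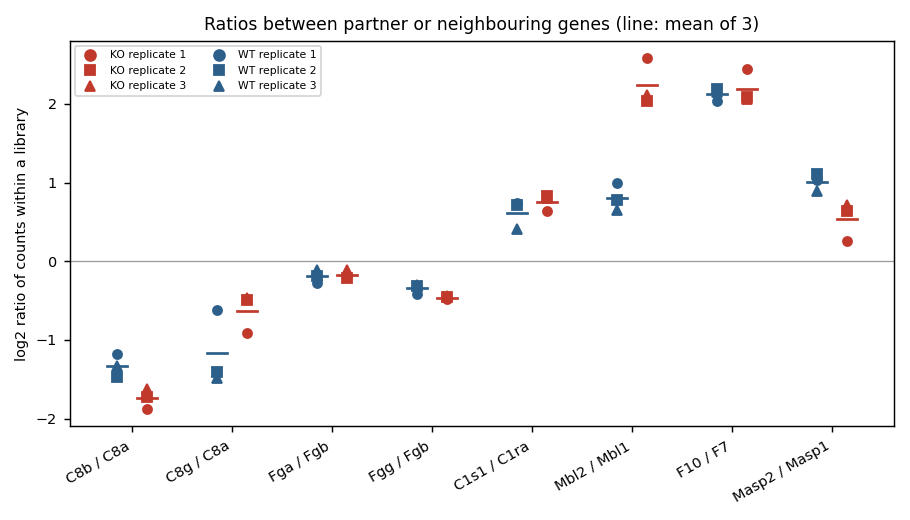
Log2 ratio of counts of 2 partner or neighbouring genes within each library, WT in blue on the left and KO in red on the right of each pair, with a line at the mean of 3. Mbl2 / Mbl1 moves most, from 0.81 to 2.24, while Fga / Fgb and F10 / F7 overlap between the genotypes.

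None of the 4 anticoagulant genes passed edgeR's test, at an unadjusted p below 0.05 or by DESeq2 either. Proc, for protein C, was at 320, 407 and 419 CPM in KO and 515, 647 and 422 CPM in WT, just without overlap (log2 -0.47, SE 0.20, edgeR adjusted p = 0.202). Pros1, for its cofactor protein S, Serpinc1, for antithrombin, and Serpind1, for heparin cofactor II, overlapped, with estimates of -0.14 (SE 0.14), -0.18 (SE 0.21) and -0.14 (SE 0.19). Of the exon bases of Serpinc1 58.3% overlap Zbtb37 on the opposite strand. In fibrinolysis Cpb2 was called. Cpb2 encodes TAFI, a carboxypeptidase that slows fibrinolysis once thrombin activates it (chr14:75242287-75283555, plus strand), and was at 351, 355 and 419 CPM in KO and 743, 626 and 727 CPM in WT. The groups were well apart, and Cpb2 fell 1.86-fold (log2 -0.90, SE 0.16, adjusted p = 0.022), a call that was lost when any KO library or WT replicate 3 was dropped (adjusted p of up to 0.112). Plasminogen (Plg) was at 1634, 2066 and 2460 CPM in KO and 2893, 3650 and 2290 CPM in WT, overlapping (log2 -0.52, SE 0.25, adjusted p = 0.241). Serpinf2, for the plasmin inhibitor alpha-2-antiplasmin, was at 878 ± 101 CPM in KO and 926 ± 205 CPM in WT (SD, n = 3 each; log2 -0.08, SE 0.21).

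**Figure D4:**
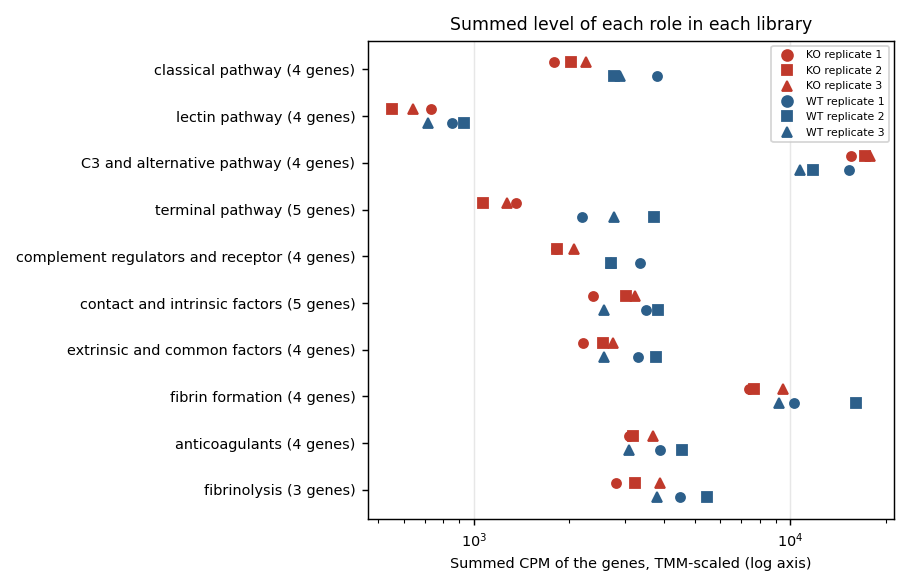
Summed CPM of the genes of each role in each library on a log axis, KO in red above WT in blue. The classical, terminal and regulator sums do not overlap between genotypes and are lower in KO, the sum with C3 is higher in KO, and the other sums overlap.

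Other genes of the same pathways were counted from lists of pathway members, which were drawn up with earlier results of these data known. Each count of called genes should be read beside the 3.58% lower and 3.36% higher among all genes tested. Of 7 tested complement initiators outside the 41, 1 fell, C1rl, a C1r-like protease gene, at 84.0 to 123 CPM in KO and 184 to 229 CPM in WT (log2 -0.94, edgeR adjusted p = 0.0242). The 3 C1q chains, which macrophages make, had estimates of 0.49 to 0.60 and did not pass. The median of 10 other soluble components was -0.60, and among them Clu, for the terminal pathway inhibitor clusterin, was at 3895 ± 577 against 2824 ± 459 CPM (SD, n = 3 each; log2 0.46, adjusted p = 0.234). C1rl, Clu and the C1q chains were named after their values were seen. Without 1 library C1rl passed in 3 of 6 fits (adjusted p of up to 0.106).

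Of 9 complement receptors and membrane regulators 2 rose and 1 fell, against 3.36% higher and 3.58% lower among all genes tested. The fall was in Cd59a, for the membrane inhibitor that stops C9 polymerization (28.8 ± 5.33 against 60.7 ± 9.51 CPM, SD, n = 3 each; log2 -1.07, edgeR adjusted p = 0.0181). The rises were in C3ar1, the C3a receptor gene (20.0 to 22.6 against 7.10 to 13.9 CPM; log2 1.12, adjusted p = 0.0386), and Vsig4, a Kupffer cell receptor for C3b (83.8 to 120 against 47.7 to 67.3 CPM; log2 0.81, adjusted p = 0.0463). Both are myeloid genes, beside the macrophage marker levels given in the opening. Without 1 library Cd59a passed in 4 of 6 fits and C3ar1 and Vsig4 in 1 each (adjusted p of up to 0.0775, 0.142 and 0.121). None of 9 other clotting factors and cofactors (median -0.45), 6 anticoagulants (-0.33), 7 fibrinolysis genes (0.85) or 4 vitamin K cycle genes (-0.16) passed edgeR's test. At an unadjusted p below 0.05 they numbered 2, 1, 4 and 1, against 25.8% of all genes, and DESeq2 called 2 of those clotting factors lower and 3 of the fibrinolysis genes higher and none of the others.

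Lists of related liver genes gave a scale for these values. None of 20 genes of other hepatocyte plasma proteins passed edgeR's test, with a median of -0.28 and a range of -1.02 to 0.62. Of them 8 had an unadjusted p below 0.05 (25.8% over all genes), and DESeq2 called 7 lower and 1 higher. None of 15 hepatocyte transcription factor genes passed (median -0.23), with 1 at an unadjusted p below 0.05 and 0 called by DESeq2. Hnf4a was at 528 ± 24.8 CPM in KO and 581 ± 138 CPM in WT (SD, n = 3 each), and it was named after its value was seen. A list of interleukin-6 and STAT3 signalling also held the interleukin-1 and TNF genes Il1r1, Il1b and Tnf. Its 12 tested genes had a median of -0.19, with 9 estimates negative and 3 positive. Of these genes 2 fell and none rose, against 3.58% lower and 3.36% higher among all genes tested. They were Il1r1, the interleukin-1 receptor gene (30.2 to 33.9 against 48.8 to 72.1 CPM; log2 -0.80, edgeR adjusted p = 0.0376), and Lifr, the LIF receptor gene (69.4 to 75.6 against 122 to 285 CPM; log2 -1.39, adjusted p = 0.0408). Each of them passed in 2 of 6 fits without 1 library (adjusted p of up to 0.151 and 0.153). Il6ra, the interleukin-6 receptor gene, was at 17.5 ± 1.91 against 31.5 ± 8.19 CPM (SD, n = 3 each; log2 -0.85, adjusted p = 0.0529), and it was picked after its value was seen.

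**Figure D5:**
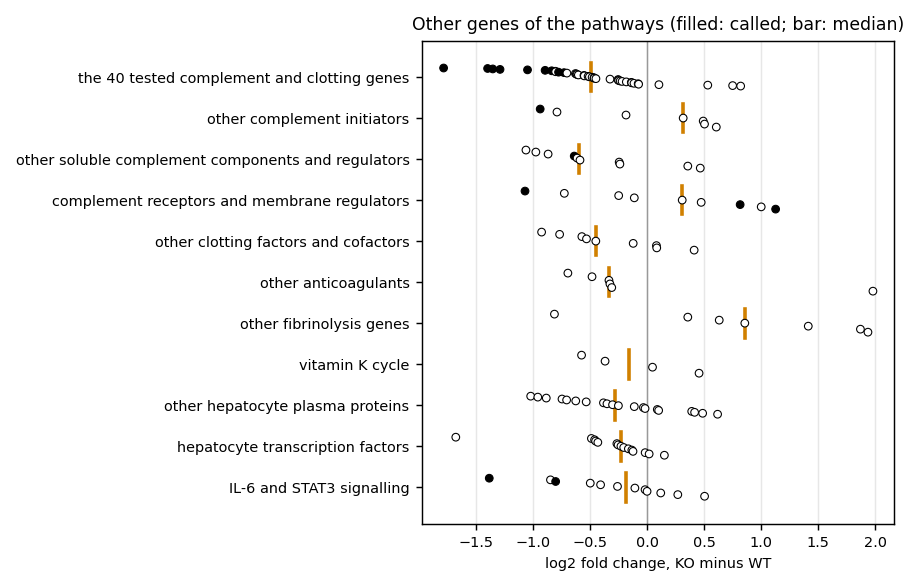
Log2 fold change of KO minus WT for each tested gene of the 41 and of 10 other lists, 1 point per gene, filled where called, with a bar at the median of each list. The medians run from -0.60 for other soluble complement components to 0.85 for other fibrinolysis genes, and the 41 genes hold 10 filled points, all below 0.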

How the data were processed

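RNA was measured in 6 livers. The authors deposited whole-number read counts per gene symbol, 1 column per library and without normalization. The build mm10 and the tools edgeR 3.20.8, Subread 1.5.3, featureCounts and STAR 2.5 are listed in the submitters' processing notes. What each did, which annotation was counted, the strandedness and the handling of multi-mapping reads are unknown (not given in the sources used here), so copies and overlapping genes are uncertain.

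The whole table was fitted in R 4.3.3 with edgeR 4.0.16: filterByExpr (minimum count 10, minimum total 15), TMM, robust glmQLFit and glmQLFTest (quasi-likelihood, two-sided) of KO minus WT, adjusted by Benjamini-Hochberg over 12945 genes at 0.05. Each standard error was taken as the absolute log2 fold change over the square root of its F. The steps were tested on simulated data. Depth was 18882220 to 24098512 counts per library. No 2 libraries of a group agreed within sampling noise. Replicates were numbered in accession order, and the numbers pair no samples.

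The 41 genes, the other lists and the motifs were chosen with earlier results of these data known. Every one of the 41 is named, and from other lists with at least 2 called genes up to 4 with the smallest p. Exon lengths and positions are from GENCODE mouse release M21 (basic set) and promoter windows from RefSeq (GRCm38.p6). Ratios within a library were compared by exact permutation. Alternatives comprised DESeq2 1.42.0, limma-voom (limma 3.58.1), other scalings (RLE, upper-quartile, library size only), other filters (none, or 1 CPM in 3 libraries), a non-robust dispersion, dropping each library in turn, and, for ratios, 0.5 counts added. A few genes of the other lists are not reported here. Figures were drawn with matplotlib 3.10.9.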

Additional observations from a re-analysis of the deposited data

How the results depend on the processing

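The count of 10 lower and 0 higher genes among the 41 was also 10 and 0 with RLE and upper-quartile factors, no low-count filter, the filter of 1 CPM in 3 libraries, limma-voom and no robust dispersion. With library size only it was 8 and 1, and with DESeq2 16 and 1. Leaving out 1 replicate gave 1 to 8 lower genes and 0 to 1 higher. The cause of these shifts was not tested, and leaving out a replicate also makes the number of samples smaller. No gene of the 41 that was called in any fit had the opposite sign in another. Over all genes the calls were 463 lower and 435 higher, with DESeq2 1061 and 921, with library size only 258 and 707, and without 1 library 53 to 475 and 48 to 504. Among the ratios, that of F10 to F7 went from a difference of 0.07 to -0.06 without KO replicate 1, that of Fga to Fgb from 0.02 to -0.01 without KO replicate 3 and -0.02 without WT replicate 1, and that of C8g to C8a from 0.54 to 0.82 without WT replicate 1. That of C1s1 to C1ra went from 0.14 to 0.03 without WT replicate 3. Only the differences for F10 to F7 and Fga to Fgb changed sign when a library was left out, and the rest kept theirs. No paired analysis was possible because the labels give no replicate numbers. With 3 libraries a group, exact tests cannot go below 0.10, and depth limits only Cfd among the 41.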

Other observations

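The level of Hc, the C5 gene, in KO replicate 1 rested on 1287 counts, against 17756 to 21305 counts in the other 5 libraries. Genes in which 1 library stood more than 5-fold below each of the other 5, with at least 10 CPM in those, were counted after Hc was seen. KO replicate 1 had 2 such genes, Hc and the MHC class II gene H2-Eb1. KO replicate 2 had 2 and WT replicate 2 had 6, and KO replicate 3 and WT replicates 1 and 3 had 0. H2-Eb1 was at 4.27, 170 and 84.9 CPM in KO replicates 1 to 3 and at 270, 56.4 and 138 CPM in WT replicates 1 to 3.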
